A study of Homo sapiens with 2 samples.

Results

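The mitosis and kinetochore genes are 38 genes whose products drive entry into mitosis, attach chromosomes to the spindle, separate them and divide the cell. They were chosen by name, and a gene was measured when at least 1 probe matching its RefSeq accession gave a signal well above background on both arrays. All 38 genes were measured, among 11994 genes compared. They were represented by 47 probes, of which 45 were used.

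The cells were HCT116, an established colon cancer cell line. They carried the pEB vector as mock-transfected cells or with HOXA5 short RNA, a transcript of the HOXA5 locus that lacks the first exon, and both were kept in blasticidin for 2 weeks. The sample sheet gives both samples the same treatment text, which describes the HOXA5 short vector, so the mock group was taken from its title and genotype label. Total RNA was labeled with Cy3 and hybridized to 1 Agilent array per group. With 1 array each there was no test, no p-value and no replicate culture, and each value below is a difference between this pair of arrays. The number of arrays limits the precision.

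Most of these genes are transcribed late in the cell cycle, so that their RNA is low in resting cells and peaks in G2 and mitosis. Many of their promoters carry the cell cycle genes homology region (CHR), which is bound by MuvB complexes, and CCAAT boxes, which are bound by NF-Y. The RNA of such genes is often read as a measure of proliferation. Because RNA was taken from whole cultures, a change in the share of dividing cells and a change in RNA per cell cannot be told apart.

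Of the RefSeq promoter windows (GRCh38.p14, 250 bases before to 50 bases after the start of a transcript), 31 of the 38 genes had 1 or more. AURKA, BIRC5, BUB3, FOXM1, TPX2, TTK and UBE2C had none. Where a gene had several windows (5 genes), the first was used. The CHR was searched as TTTGAA or TTCGAA and the CCAAT box as CCAAT, each on both strands, with overlapping matches counted separately. No other form of the CHR was searched, so a window counted as without a CHR may hold another form. The windows of 21 of the 31 genes held a CHR (67.7%), against 16.4% of all 35116 windows, where a gene may count more than once. The windows of 24 held a CCAAT box (77.4%), against 34.6% of all windows. Both motifs stood in 18 windows (58.1%), against 6.38% of all windows. Over the 9473 genes compared that had a window, with 1 window each, the share was 10.8% for a CHR, 37.2% for a CCAAT box and 4.70% for both.

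The stretch from 120 bases before to 25 bases after the start is shown for the 5 genes with the lowest differences described below, for NEK2, which had the highest, and for CENPA, which went the other way from its kinetochore partners. Capitals mark CHR and CCAAT matches on either strand.
MKI67, chr10:128126399-128126543, minus strand: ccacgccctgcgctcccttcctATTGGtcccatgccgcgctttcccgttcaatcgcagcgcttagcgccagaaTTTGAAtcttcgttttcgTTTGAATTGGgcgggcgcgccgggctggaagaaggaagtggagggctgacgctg
CENPE, chr4:103198319-103198463, minus strand: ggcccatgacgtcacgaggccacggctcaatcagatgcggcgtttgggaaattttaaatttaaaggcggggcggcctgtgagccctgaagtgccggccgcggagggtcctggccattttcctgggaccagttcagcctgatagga
CENPF, chr1:214603075-214603219, plus strand: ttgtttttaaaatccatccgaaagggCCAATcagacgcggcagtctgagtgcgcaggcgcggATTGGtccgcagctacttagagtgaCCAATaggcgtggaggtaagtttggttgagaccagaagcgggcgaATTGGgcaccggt
NDC80, chr18:2571437-2571581, plus strand: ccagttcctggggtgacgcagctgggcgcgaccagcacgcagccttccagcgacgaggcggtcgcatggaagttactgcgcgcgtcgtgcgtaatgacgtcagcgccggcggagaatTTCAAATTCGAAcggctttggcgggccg
HMMR, chr5:163460512-163460656, plus strand: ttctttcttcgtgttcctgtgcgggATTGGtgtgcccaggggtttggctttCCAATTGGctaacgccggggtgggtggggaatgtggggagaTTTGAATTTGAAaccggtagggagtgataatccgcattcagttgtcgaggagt
NEK2, chr1:211675597-211675741, minus strand: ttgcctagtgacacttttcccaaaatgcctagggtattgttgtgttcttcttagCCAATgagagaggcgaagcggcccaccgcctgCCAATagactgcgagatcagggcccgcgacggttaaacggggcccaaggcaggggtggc
CENPA, chr2:26785936-26786080, plus strand: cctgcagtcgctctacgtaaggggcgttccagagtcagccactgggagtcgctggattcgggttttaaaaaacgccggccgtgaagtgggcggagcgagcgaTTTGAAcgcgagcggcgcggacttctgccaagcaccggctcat

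These windows show that the genes with the lowest differences did not share 1 promoter layout. The window of CENPE held neither motif in the forms searched. CDC25B, CDC25C and KIF2C were the only others of the 31 with neither. CDC25B and CDC25C had 4 windows each, of which only the first was used. NDC80 held 2 CHR matches beside its start, at positions -3 and 4 counted from the start as 1, and no CCAAT box. HMMR held 2 CHR matches side by side at -28 and -22, and MKI67 held 2 at -47 and -29, the second of which shares bases with a CCAAT match. The CHR of CENPF lay at 41, beyond the printed stretch, and NEK2 held 2 CCAAT boxes and no CHR. The median log2 difference between the arrays was -0.02 for the 21 genes with a CHR in the forms searched and 0.06 for the 10 without. It was 0.01 for the 24 genes with a CCAAT box and -0.10 for the 7 without. A match is a description of the letters and does not show that a factor binds there.

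Signals on both arrays were divided by the 75th percentile of each array, which was 35.6 for mock and 44.0 for HOXA5 short. This scaling takes 0.30 off each log2 difference. Before scaling, 40 of the 45 probes were brighter on the HOXA5 short array. The share of all compared probes that were brighter there was not counted. The HOXA5 short array was brighter as a whole, with a median signal of 97.0 over its detected probes, against 84.7 for mock. After scaling, the genes spread evenly around 0. The difference of a gene, HOXA5 short minus mock on the log2 scale, was above 0 for 19 genes and below 0 for 19. Its median was -0.01 over the 38 genes and -0.02 over all genes compared. The SD over the 38 genes was 0.25, against 0.29 over all genes, and 36 of the 38 differences lay within 0.5 of 0 (94.7%, against 93.3% of all genes).

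**Figure D1:**
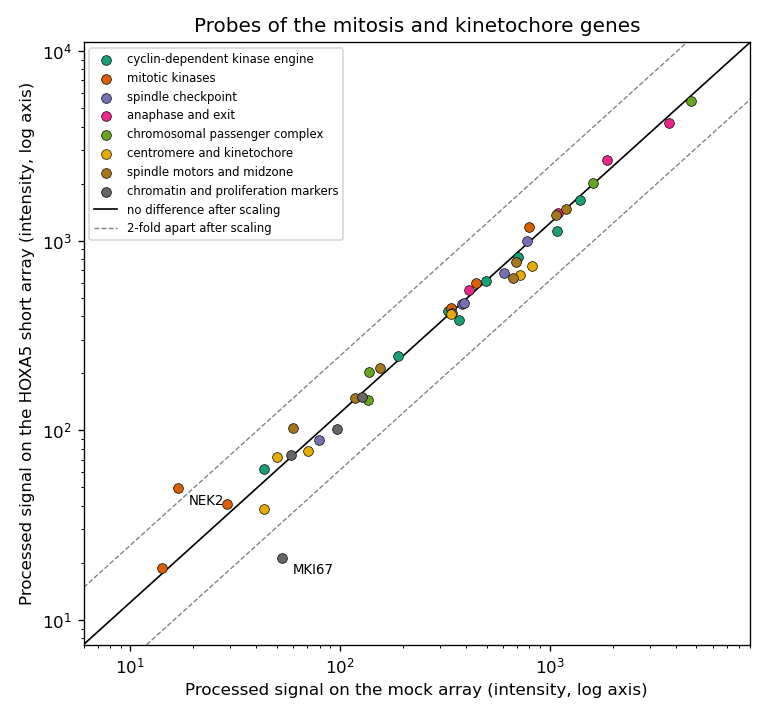
Processed signal of each of the 45 probes used, mock array on the x axis and HOXA5 short array on the y axis (intensity, both axes logarithmic), colored by role. Most points lie along the solid line of no difference after scaling, and 1 probe of MKI67 and 1 of NEK2 lie beyond the dashed 2-fold lines.

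None of the 38 genes reached 2-fold in either direction. Of the 11994 genes compared, 0.642% were past 2-fold upward and 0.258% past 2-fold downward on the HOXA5 short array. At 1.5-fold, 1 member was higher (NEK2) and 1 was lower (MKI67), while the share of all genes was 2.78% higher and 1.6% lower. With 38 genes, counts of 0 and 1 are near these shares. Of the 2-fold calls among all genes, 71.3% were higher, which became 84.4% with scaling to the median of all probes and 97.3% with scaling to RNA spike-ins, the control RNAs added at labeling. With no filter on detection the majority turned, and 44.2% were higher.

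The error of a single spot came from the 592 detected probes that the array carries in several copies. The SD of the difference for 1 spot was 0.21 over all of them, from 0.33 for signals below 50 to 0.12 for signals above 1000. This is the spread within a pair of arrays and holds no spread between cultures. Of the 37 member probes printed once, 7 lay more than 2 SD from 0 for their brightness (18.9%), against 11.6% of all 17346 such probes compared. They were those of CENPF, NDC80, HMMR and CCNB2 on the lower side, 1 probe of KIF23 on the higher side, and the probes of MKI67 and NEK2 that were past 2-fold.

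**Figure D2:**
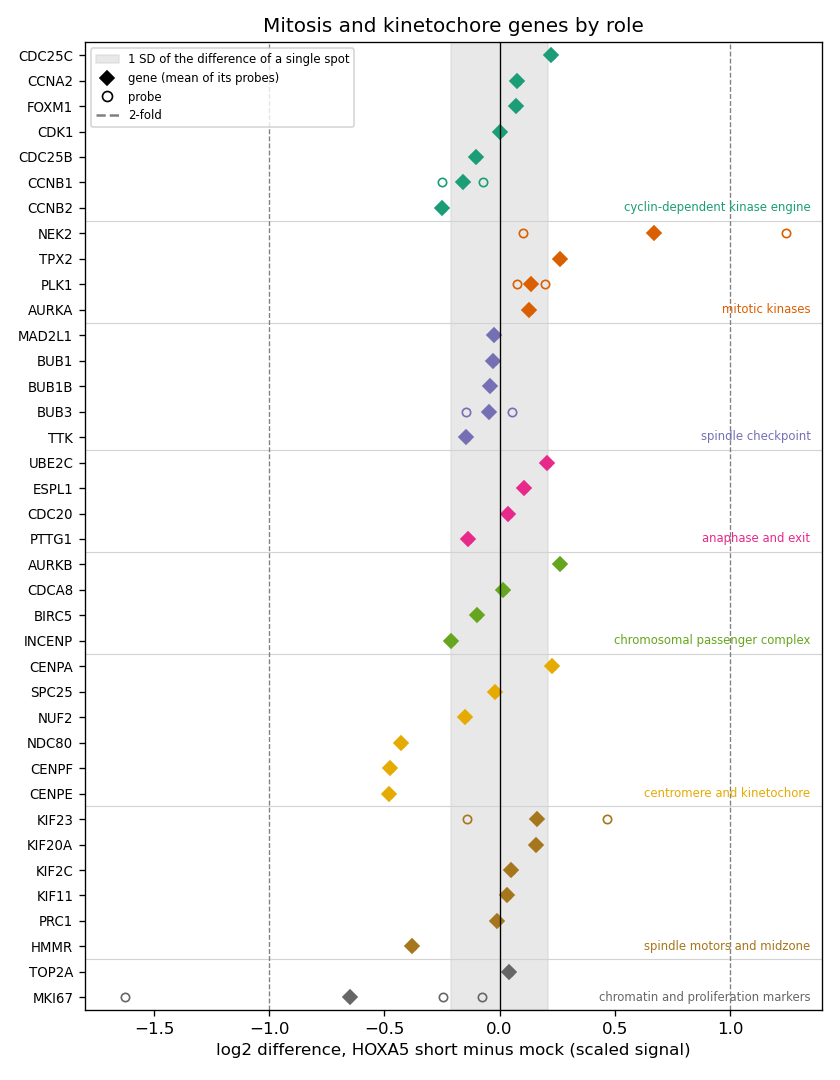
log2 difference of each gene (diamonds, mean of its probes) and of each probe (circles), HOXA5 short minus mock, grouped by role. The grey band is 1 SD of a single spot (0.21) and dashed lines mark 2-fold. The lowest gene is MKI67 at -0.65 and the highest NEK2 at 0.67, and for both a single probe sets the gene far from its other probes.

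The machinery that starts mitosis was little different between the arrays. CDK1, the kinase that drives entry into mitosis, gave a signal of 498 in mock cells and 615 in HOXA5 short cells, and its log2 difference over 10 spots was 0.00. Its copies ran from -0.23 to 0.66. The highest (0.66) and the next (0.23) lay close together, in rows 7 and 11 of column 38. Of the measured neighbors within 5 rows and 5 columns, 3 of 36 and 3 of 37 were 2-fold apart. The other copies ran from -0.23 to 0.02, so the difference of 0.00 rests in part on that place. CCNB1, the cyclin B that activates CDK1, had a log2 difference of -0.16 over its 2 probes (-0.07 and -0.25). CCNB2, the other B cyclin, gave 1083 and 1124, a log2 difference of -0.25. CCNA2, the cyclin of S phase and early mitosis, gave 189 and 246, a log2 difference of 0.08. The phosphatases that remove the inhibitory phosphates of CDK1 lay on either side, with CDC25B at -0.10 and CDC25C at 0.22. FOXM1, a transcription factor of G2 and mitosis genes, gave 326 and 424, a log2 difference of 0.07. The median of these 7 genes was 0.00, with CCNB2 lowest and CDC25C highest.

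AURKA, PLK1 and NEK2, grouped here as centrosome and spindle kinases, and the kinase activator TPX2 were above 0. AURKA, which matures centrosomes, gave 445 and 600 (log2 difference 0.13). TPX2, which activates AURKA on spindle microtubules, gave 793 and 1174 (log2 difference 0.26). Both probes of PLK1, a kinase needed for centrosomes and cytokinesis, were higher on the HOXA5 short array after scaling, at 0.08 and 0.20. AURKA, both probes of PLK1 and 1 of the NEK2 probes differed by less than 1 SD of a single spot of their brightness. TPX2 stood at 1.58 SD, and the other NEK2 probe, in an uneven zone, at 3.79 SD. All 4 genes of this group were above 0 under each of the 12 ways of processing run, all of which use the same pair of arrays. Of all genes compared, 45.5% were above 0 as reported. The stricter filter did not measure NEK2.

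NEK2, a kinase that splits centrosomes, had the highest difference of the 38 genes, 0.67, and its probes did not give the same size. The first gave 17.0 in mock cells and 49.6 in HOXA5 short cells, a log2 difference of 1.24. The second gave 14.2 and 18.8, a log2 difference of 0.10. The first probe lies in column 3 of the array grid, where 11 of its 28 measured neighbors within 5 rows and 5 columns were also 2-fold apart. None of the 54 neighbors of the second probe was. Leaving out spots in such uneven zones gave NEK2 a log2 difference of 0.10.

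The spindle checkpoint, which holds anaphase until all chromosomes are attached, was close to 0 in all 5 genes. Signals of BUB1, a checkpoint kinase, were 381 and 461 (log2 difference -0.03). BUB1B, which inhibits the anaphase-promoting complex as part of the checkpoint complex, gave 390 and 468 (log2 difference -0.04). MAD2L1, which captures CDC20, gave 342 and 416 (log2 difference -0.02). These 3 genes were probed once each and differed by less than 1 SD of a single spot. The 2 probes of BUB3, which carries BUB1 and BUB1B to kinetochores, gave -0.15 and 0.05. TTK, the kinase that starts checkpoint signaling, gave 79.6 and 88.9, a log2 difference of -0.14. All 5 genes were below 0, but 4 of them were above 0 with scaling to the median or with normexp background correction, and all 5 with spike-in scaling. Scaling moves all genes alike, and 0 of the 5 were above the median of all genes as reported, with scaling to the median or with spike-in scaling, while 4 of 5 were above it with normexp and with no filter.

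Genes of anaphase and mitotic exit lay within 0.21 of 0. CDC20, the activator of the anaphase-promoting complex, gave 1099 and 1393 (log2 difference 0.04). UBE2C, the ubiquitin-conjugating enzyme of that complex, gave 1866 and 2655 (log2 difference 0.20). Its 1 spot, in row 9 and column 38, had 3 of 37 measured neighbors 2-fold apart. CDK1 spots in rows 7 and 11 of that column stood at 0.66 and 0.23, above the other CDK1 spots. Whether this place on the array raised UBE2C was not tested. ESPL1 is separase, the protease that cuts cohesin, and gave 413 and 549, a log2 difference of 0.11. Its inhibitor securin, PTTG1, gave 3718 and 4168, a log2 difference of -0.14.

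The chromosomal passenger complex corrects wrong attachments, and its 4 genes did not move together. AURKB, its kinase, gave 137 and 202, a log2 difference of 0.26. INCENP, the scaffold that activates AURKB, gave 136 and 145, a log2 difference of -0.21 ± 0.16 (SD of 8 spots). Its spots left out as outliers stood at 0.26 and 0.09, and with outlier spots kept INCENP was at -0.13. BIRC5 (survivin) gave 4731 and 5460, a log2 difference of -0.10 ± 0.15 (SD of 9 spots). CDCA8 (borealin) gave 1609 and 2008, a log2 difference of 0.02. Thus the kinase and the scaffold lay on opposite sides of 0. AURKB, with 1 spot, stood at 1.39 times the SD of a single spot of that brightness. INCENP was a mean of 8 spots, so that SD is not the spread of its value.

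The lowest differences shared by several genes were in the centromere and kinetochore group, with a median of -0.29 over 6 genes and 5 of 6 below 0. That median was -0.08 with no filter on detection, -0.13 with normexp background correction and 0.12 with spike-in scaling, where 3 of the 6 were below 0. CENPE, the motor that carries chromosomes to the spindle equator, gave 43.7 and 38.6, a log2 difference of -0.48 ± 0.15 (SD of 10 spots). All 10 of its spots were lower after scaling, from -0.72 to -0.30. NDC80, which binds microtubules at the outer kinetochore, gave 722 and 663, a log2 difference of -0.43. Of its partners in the NDC80 complex, NUF2 gave 70.1 and 78.1 (log2 difference -0.15) and SPC25 gave 339 and 413 (log2 difference -0.02). CENPA, the histone H3 variant that marks centromeres, went the other way with 50.2 and 72.5, a log2 difference of 0.23. Set against the median of all genes, 4 of the 6 were lower. The count was also 4 with normexp, 5 with quantile normalization and 3 with no filter. Spike-in scaling moves all genes alike and cannot change it.

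CENPF, a large protein of the outer kinetochore and nuclear matrix, was probed at 2 sites. The probe used gave 823 and 731, a log2 difference of -0.48. The other missed the background limit on the mock array (3.53) and passed it on the HOXA5 short array (13.1). Set against the lowest signal that passed on the mock array (7.74), its HOXA5 short signal was 1.38-fold higher after scaling. That probe was 1 dim spot, with a scanner error of 0.72 on its log2 difference. The 2 probes of CENPF lay on opposite sides of 0, and the dim one cannot settle a direction. Without the filter on detection, which adds the dim probe, CENPF had a log2 difference of 0.56.

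Of the spindle motors and midzone proteins, HMMR was the lowest. HMMR, a spindle and hyaluronan-binding protein, gave 670 and 635, a log2 difference of -0.38. KIF20A, a kinesin of cytokinesis, gave 155 and 214, and its difference of 0.16 ± 0.08 on the log2 scale (SD of 9 spots) was above 0 in all 9 spots. KIF11, which pushes spindle poles apart, had a log2 difference of 0.03, and KIF2C, which depolymerizes microtubule ends, 0.05. PRC1, which bundles midzone microtubules, gave 1191 and 1460, a log2 difference of -0.01. KIF23, the motor of the centralspindlin complex, had probes at -0.14 and 0.47, which average 0.16. Its brightest probe, at -0.14, would put it on the other side of 0.

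MKI67, the Ki-67 protein that coats mitotic chromosomes, had the lowest difference of the 38 genes, -0.65. A single probe accounted for most of it, with 53.1 in mock cells and 21.3 in HOXA5 short cells (log2 difference -1.62). The other MKI67 probes gave 96.9 and 101 (log2 difference -0.24), and 128 and 150 (log2 difference -0.08). All 3 were below 0. The lowest probe also lies in column 3 of the grid, where 3 of 26 measured neighbors were 2-fold apart, and without spots of such zones MKI67 stood at -0.16. TOP2A, the topoisomerase that untangles sister chromatids, gave 58.3 and 73.9, a log2 difference of 0.04 ± 0.20 (SD of 10 spots).

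Each of 8 members had a probe printed in 10 spots across the array. These spots give the spread of its difference within this pair of arrays and hold no spread between cultures. For CENPE all spots used were lower and for KIF20A all were higher, and no other member of the 8 was one-sided. Among the 592 probes printed in several spots, 16.4% had each spot lower and 4.05% had each spot higher, so 1 of 8 in each direction is no more than a description. CCNA2 was higher in 8 of 9 spots, INCENP was higher in 1 of 8, BIRC5 and CCNB1 in 2 of 9 each, CDK1 in 4 of 10 and TOP2A in 5 of 10. The scanner software had marked 6 member spots as outliers, and these were left out. They included a CCNA2 spot with a log2 difference of 1.31, a BIRC5 spot at 0.76 and a KIF20A spot at 0.41, each within 14 columns of the left edge and in an uneven zone. Also left out were INCENP spots at 0.26 and 0.09 and a CCNB1 spot at -0.01, outside uneven zones.

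**Figure D3:**
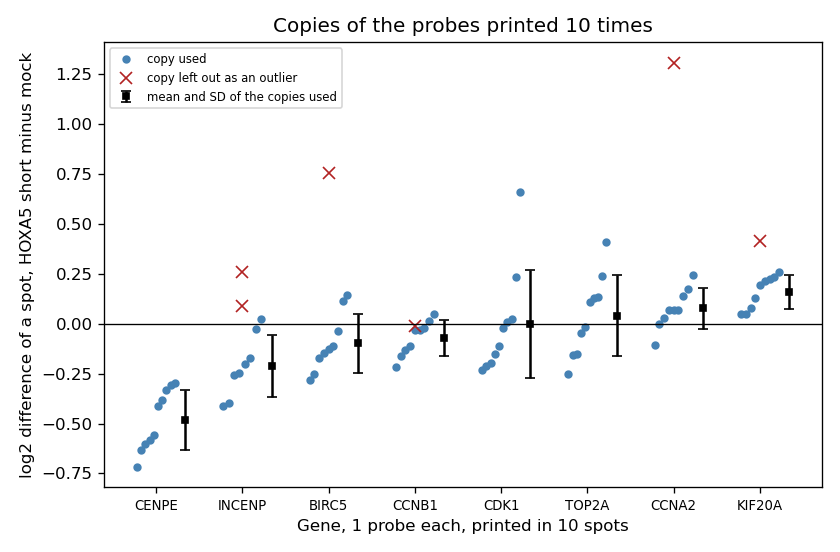
log2 difference of each spot of the 8 probes printed 10 times (HOXA5 short minus mock), with the mean and SD of the spots used (black squares). Crosses are spots left out as outliers. The CENPE spots lie between -0.72 and -0.30, and the CCNA2 spot at 1.31 stands far above the other 9.

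Other genes of cell division were described from 7 lists of 140 genes, of which 136 were measured. Their median was -0.05, with 55 above 0 and 81 below. Of all genes compared, 54.5% were below 0, against 59.6% of these 136. The list medians ran from -0.08 for the MuvB, E2F and retinoblastoma regulators to -0.02 for the inner kinetochore, beside -0.02 over all genes.

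In the outer kinetochore list, KNL1, the scaffold that recruits BUB1 and binds the NDC80 complex, was lowest. It gave 93.1 and 78.7, a log2 difference of -0.55 ± 0.20 (SD of 9 spots), and all 9 spots were below 0. ZW10, which brings dynein to kinetochores, was highest in that list at 0.18. In the inner kinetochore list the lowest was CENPK at -0.49, from 14.5 and 12.7, and the highest CENPS at 0.71, from 136 and 274, both subunits of the centromere network. CENPK rested on 1 dim spot. The medians of the inner and outer lists were -0.02 and -0.04.

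In the condensin and cohesin list, NIPBL, the cohesin loader, was lowest at -0.58 and NCAPD3, a condensin II subunit, was highest at 2.26. NIPBL rested on 1 dim spot, at 49.0 and 40.4. NCAPD3 gave 58.6 and 346 at 1 spot in column 164, near the right edge, with 2 of 25 neighbors 2-fold apart. In the spindle and cytokinesis list, PLK4, the kinase of centriole copying, was lowest at -0.56 and CIT, the citron kinase of cytokinesis, highest at 2.29. PLK4 rested on 1 dim spot, at 17.0 and 14.2. CIT gave 30.0 and 181 at 1 spot in column 11, in an uneven zone. NCAPD3 and CIT were the only 2 of the 136 genes past 2-fold, and each rested on 1 spot.

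Of the anaphase-promoting complex list, all 17 genes were measured, from CDC27, a core subunit, at -0.30 to UBE2S, its chain-extending enzyme, at 0.26. Of the entry and exit regulators, CDC14B, a phosphatase, was at -0.56 and CCNF, cyclin F, at 0.35. Of the MuvB, E2F and retinoblastoma regulators, which include the complexes that bind the CHR, 14 of 19 were below 0, from RBL2 (p130) at -0.33 to TFDP2, an E2F partner, at 0.31. RBL2 rested on 1 dim spot, at 42.1 and 41.4.

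**Figure D4:**
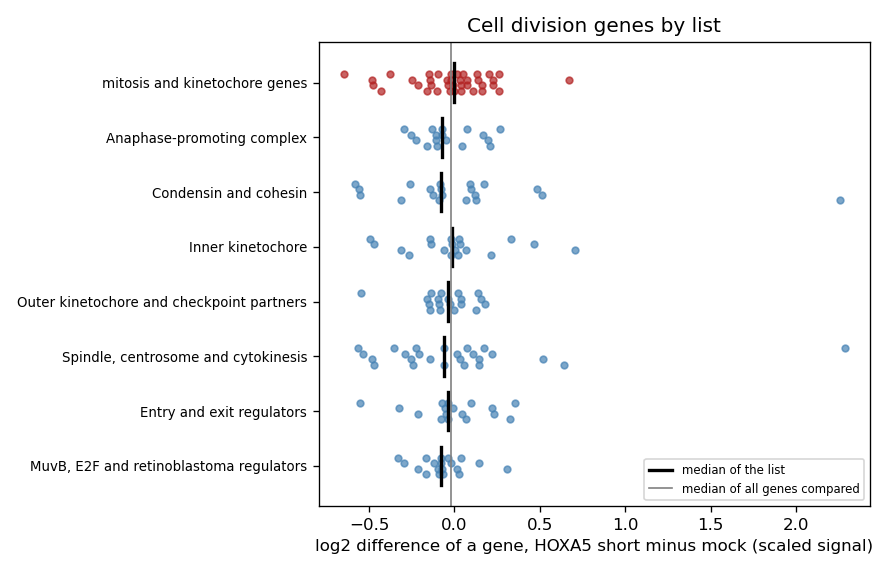
log2 difference of each measured gene (HOXA5 short minus mock) in the 38 mitosis and kinetochore genes (red) and in 7 other lists of cell division genes (blue). Black bars are list medians, from -0.08 to -0.01, and the grey line is the median of all genes at -0.02. The points beyond 2 are NCAPD3 and CIT.

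The choice of scaling set the side of 0 for many of these genes. After scaling, the 7 spike-ins detected had log2 differences below 0, with a mean of -0.41. Scaling to them moved every gene up by 0.41, so that 34 of the 38 members were above 0, and MKI67, CENPE, CENPF and NDC80 were the 4 below it. Scaling to the median of all probes put 26 above 0. In both cases all genes moved together, and the median of the members stayed 0.02 above that of all genes. Under the 12 ways of processing run, 16 members were above 0 and 3 (CENPE, NDC80 and MKI67) below 0 each time they were measured. The stricter filter kept 31 of the 38. All 12 use the same pair of arrays, and the share of all genes that kept their side was not counted. With spike-in scaling set aside, 16 were above 0 and 8 below 0 each time, the further 5 being CCNB2, TTK, INCENP, NUF2 and HMMR. With normexp background correction, CENPE stood at -0.20, CCNB2 at -0.06 and HMMR at -0.25.

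**Figure D5:**
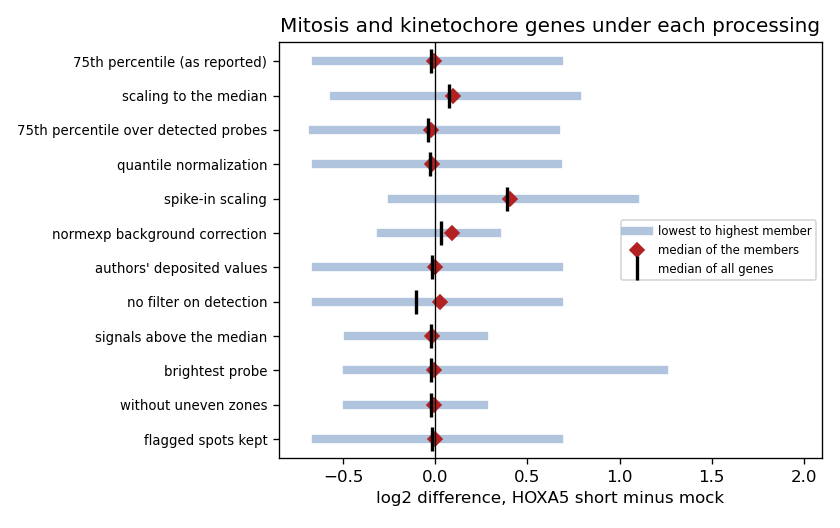
Median log2 difference of the 38 genes (diamonds), of all genes (black ticks), and the range from lowest to highest member (bars) under each of 12 ways of processing. Spike-in scaling shifts the members' median to 0.40 and that of all genes to 0.39, and without the filter on detection they stand at 0.02 and -0.11.

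Each array had 62976 spots and 50599 probes, of which 36.4% (mock) and 37.5% (HOXA5 short) were well above background, and no spot was saturated. HOXA5, the gene of the transfected RNA, gave 39.4 in mock cells and 346 in HOXA5 short cells, 7.11-fold higher after scaling. This was 1 spot, and whether its probe tells HOXA5 short RNA from HOXA5 mRNA was not tested. The 5 epithelial markers (EPCAM, CDH1, KRT8, KRT18, KRT19) were detected on both arrays. Of the 6 intestinal markers, CDX1, CDX2 and MUC2 were detected, while CEACAM5, KRT20 and VIL1 were not. CDX2 gave 244 and 280. CDX1 passed on 1 of 2 probes, at 12.6 and 18.9, and MUC2 on 1 of 4, at 13.3 and 14.2, so both were dim. Of the markers of blood, endothelium, fibroblasts and liver given here, COL1A1 alone was detected, at 16.7 and 22.6. PTPRC, CD3E, PECAM1, VWF, COL3A1, DCN and ALB were not well above background on both arrays. Of the spots measured, 2.00% lay in uneven zones, and the 2 member spots among them were the NEK2 and MKI67 probes described above.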

How the data were processed

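Total RNA of HCT116 cells was measured on 1 single-color Agilent array for each group, and groups were taken from the title and genotype labels. Per the file headers, the images were read with version 11.5.1.1 of Feature Extraction, which subtracts background. The deposited scanner files hold 1 linear intensity per spot with its error and flags. A second deposited table holds log2 values centered by the authors on the mean of each probe, so only the difference of its columns was used, as an alternative. The methods name no scaling.

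Spots marked as outliers on either array were left out, log2 signals were averaged over the spots of a probe, and the 75th percentile of all non-control probes of each array was subtracted. A probe was compared when most of its spots were well above background on both arrays (17938 probes), and a gene was the mean of its probes. Accessions were matched without version to RefSeq genes of GRCh38.p14, which named 59.3% of all probes and 85.3% of those that passed. The arrays were annotated on hg19, and coordinates are given only for RefSeq promoter windows.

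A spot was in an uneven zone when at least 10 measured spots lay within 5 rows and 5 columns and at least 10% of them were 2-fold apart. The alternatives were scaling to the median, to detected probes or to spike-ins, quantile normalization, normexp on median signals (limma 3.58.1 in R 4.3.3, offset 50), the deposited table, leaving out the filter or making it stricter, the brightest probe, no uneven zones, a threshold of 1.5-fold, and, chosen after seeing the data, keeping outlier spots. Scripts used Python 3.11.15 and were tested on simulated data. The genes named are all 38 members, HOXA5, the markers (apart from 1 that is not reported here), and the highest and lowest gene of each other list. The members and lists were chosen with earlier results of these data known.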

Additional observations from a re-analysis of the deposited data

Results flagged for a closer look

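Both results below come from spots outside the values of the genes. The second CENPF probe, 1 dim spot, was well above background on the HOXA5 short array only. After scaling it stood 1.38-fold above the lowest signal that passed on the mock array. The CENPF probe used was lower on the HOXA5 short array. A CCNA2 spot left out as an outlier on the mock array had a log2 difference of 1.31. Its mock signal was 71.4, against a median of 193 over the other CCNA2 spots, and 12 of its 32 measured neighbors were 2-fold apart. With outlier spots kept, CCNA2 had a log2 difference of 0.20 in place of 0.08.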

How the results depend on the processing

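No paired analysis was possible because each group had 1 array and no result came from a test. The median of the 38 genes ran from -0.02 to 0.09, changing sign, under the alternatives other than spike-in scaling, which gave 0.40. Its gap to the median of all genes ran from 0.00 to 0.13, the highest with no filter. The count of members at least 2-fold apart, 0 as reported, was 1 (NEK2) with spike-in scaling and with the brightest probe, and 2 at the 1.5-fold threshold. Over all genes, the 77 that were at least 2-fold higher became 329 with spike-in scaling, 37 with normexp, 446 with no filter, 35 with the stricter filter and 333 at 1.5-fold. The 31 at least 2-fold lower became 20 with scaling to the median, 9 with spike-in scaling, 8 with normexp, 564 with no filter, 14 with the stricter filter, 19 without uneven zones and 192 at 1.5-fold. The cause of these moves was not tested. The stricter filter kept 31 of the 38 members. The 7 list medians ran from -0.11 to 0.09 without spike-in scaling, several changing sign. Spike-in scaling moved all 38 members by 0.41. Under the other alternatives the members that moved by more than the SD of a single spot (0.21) were NEK2, CENPE and MKI67 with normexp, CDK1 and CENPF with no filter, KIF23 and MKI67 with the stricter filter, NEK2, KIF23 and MKI67 with the brightest probe, and NEK2 and MKI67 without uneven zones. Low signal limits the dim probes most, since the SD of a single spot was 0.33 below a signal of 50.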
